A study of Mus musculus with 8 samples.

Results

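The interferon-induced GTPases described here are 10 genes of the guanylate-binding protein (GBP) and immunity-related GTPase (IRG) families. They were chosen by name, as the rows of the deposited RNA-Seq table whose gene symbol is Gbp2, Gbp3, Gbp5, Gbp6, Gbp7, Gbp9, Igtp, Irgm1, Irgm2 or Iigp1. The list was set with earlier results of these data known. All 10 symbols were found once each among 22520 genes. Of these 10 genes, 9 were at 1 or more in at least 4 of the 8 libraries and were tested together with all other such genes, 11389 in total. Only the row named Gbp5 stayed under that limit.

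Interferons bind receptors on the cell surface, whose kinases phosphorylate STAT proteins. STAT complexes then enter the nucleus and, with interferon regulatory factors, switch on a large set of defence genes. GBPs and IRGs are among the most strongly inducible of these genes in mouse cells. GBPs assemble on the vacuoles of intracellular parasites and on bacteria and help to open them, which exposes microbial molecules to inflammasomes. Effector IRGs such as Iigp1 (also named Irga6) load onto parasite vacuoles and break them, while the regulatory IRGs Irgm1, Irgm2 and Igtp (also named Irgm3) sit on the cell's own membranes and keep the effectors from acting there. Endothelial cells, like macrophages and fibroblasts, make these proteins after exposure to interferon.

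The libraries came from mice on the C57BL/6 background at postnatal day 14. Both groups carried floxed Lrp1 alleles (LRP1 f/f), so the controls were not mice with unmodified Lrp1. The 4 LRP1 KO libraries came from mice that also carried Cdh5-CreER, a tamoxifen-inducible Cre recombinase driven by the promoter of the endothelial gene Cdh5, and the 4 wild-type (WT) libraries from littermates without it. The presence of the Cre transgene and the loss of Lrp1 therefore cannot be told apart. Each library is labelled as a mixture of microvascular cells of heart, liver and lung, and the study's methods describe selection with beads that carry an antibody to PECAM-1. The study itself describes liver cells and heart and lung cells as analysed apart, and the labels give no organ for a single library. If libraries differ in organ, the means and SDs below mix organs, and this cannot be told from the labels. The labels do not say whether each library came from a separate animal, so the p-values below measure the spread between these samples. LRP1 is a large endocytic receptor of the LDL receptor family. Lrp1 itself was 120 ± 16.0 FPKM in WT and 4.79 ± 2.20 in LRP1 KO (mean ± SD, n = 4 each), where FPKM, the unit inferred for these values, is a level corrected for transcript length and for the number of mapped fragments. The values had been brought to a common distribution across the 8 libraries before deposit, so the depth of each library is unknown. Log2 profiles of libraries correlated at 0.980 to 0.994 within groups and at 0.961 to 0.988 between groups. Y-linked genes summed to 0.112 FPKM in WT library 4 and 0.0955 FPKM in LRP1 KO library 2, against 21.6 to 63.9 FPKM in the other libraries, so each group held 1 library of this kind.

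The libraries did not hold endothelial RNA alone. The 12 endothelial markers examined, Pecam1 and Cdh5 among them, were all present, but they summed to between 94.0 and 114 FPKM in WT, where 8 fibroblast markers such as Col1a1 and Dcn summed to between 2348 and 3533 FPKM. In LRP1 KO the endothelial markers summed to between 96.4 and 453 FPKM, and the fibroblast markers to between 1958 and 3123 FPKM. The level of Lrp1 in LRP1 KO was 0.0399 times that in WT, in libraries where fibroblast markers summed higher than endothelial ones, and the cell type in which Lrp1 was lost was not tested. Because these are bulk samples, a change in the number of cells of a type and a change in RNA per cell cannot be told apart for any gene below.

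The member genes lie on 4 chromosomes of the mouse genome (GRCm38, GENCODE M21 annotation, found by Ensembl identifier). On the plus strand of chromosome 3 stand Gbp7 (chr3:142530342-142550149), Gbp3 (chr3:142560026-142573209), the row named Gbp5 (chr3:142594847-142619179) and Gbp2 (chr3:142620602-142638008). On the minus strand of chromosome 5 stand Gbp9 (chr5:105077630-105139539) and the row named Gbp6 (chr5:105214907-105293695). Chromosome 11 holds Irgm1 (chr11:48861968-48871683, minus strand) and, apart from it, Igtp (chr11:58199556-58207591) and Irgm2 (chr11:58199618-58222782), which overlap on the plus strand. Iigp1 lies on the plus strand of chromosome 18 (chr18:60376027-60392634).

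For 2 members the symbol and the identifier in the table point to different genes. The row named Gbp5 carries ENSMUSG00000040264, which the annotation assigns to Gbp2b, a close relative of human GBP1. The gene now named Gbp5 was not analysed here. The row named Gbp6 carries ENSMUSG00000079362, annotated as Gm43302, a model that spans Gbp6 and Gbp10. All of its 50-base stretches (100%) also occur in transcripts of other genes, 93.0% of them in Gbp6, so reads for this row could have been shared out in several ways. Sharing was lower for the other members. It was 12.8% for Gbp7, 12.3% for Igtp (all of it with Irgm2), 9.56% for Gbp9, 7.30% for Irgm2 and under 5% for Gbp3, Iigp1, Gbp2, the Gbp5 row and Irgm1. Gbp9 also overlaps Gbp4 and Gbp8 on the same strand. Values for overlapping pairs are uncertain to the extent that the counting split such reads.

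Interferon-responsive promoters carry an interferon-stimulated response element (ISRE), bound by complexes of STATs and IRF9 or by other IRFs alone, or a gamma-activated site (GAS), bound by STAT dimers. Both were searched on both strands in the 250 bases before the start site, in RefSeq promoters of GRCm38.p6. The ISRE-type pattern was GAAANNGAAA and the GAS-type pattern TTCNNNGAA, and the patterns overlap in no member window. Of the 10 members, 7 had a RefSeq promoter, the Gbp5 row through its identifier as Gbp2b. Gbp3 had 2 windows, which made 8 in all. The ISRE-type pattern was found in 7 of the 8 windows, so in each of the 7 genes, against 2.98% of 32851 mouse promoter windows (978 windows). The GAS-type pattern was found in 3 of the 8 windows, those of Gbp7, Igtp and Irgm2, against 7.02% of windows (2306). The second Gbp3 window, from a start farther downstream, held neither. The share for all windows is a background for reading these counts, and a pattern match is not evidence that a factor was bound in these cells.

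The 3 promoters with both patterns are shown because they place the elements side by side. Each sequence is the 110 bases just before the start site, 5′ to 3′ on the gene's strand, with the matches in capitals. They lie at chr3:142530226-142530335, chr11:58199446-58199555 and chr11:58214867-58214976, all on the plus strand. The Irgm2 stretch lies inside the annotated span of Irgm2 (chr11:58199618-58222782). The RefSeq start used for Irgm2 is therefore farther downstream than the start of that span.
Gbp7: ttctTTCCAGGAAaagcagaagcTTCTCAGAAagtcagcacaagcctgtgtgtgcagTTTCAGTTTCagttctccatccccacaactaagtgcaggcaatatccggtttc
Igtp: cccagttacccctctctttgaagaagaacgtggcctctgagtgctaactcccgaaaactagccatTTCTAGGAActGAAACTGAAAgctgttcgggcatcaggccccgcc
Irgm2: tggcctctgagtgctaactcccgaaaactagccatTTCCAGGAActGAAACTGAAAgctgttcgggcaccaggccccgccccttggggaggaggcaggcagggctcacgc

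In Igtp and Irgm2 a GAS-type match stands directly before an ISRE-type match that reads along the gene's strand, at -45 to -37 and -34 to -25 for Igtp and at -75 to -67 and -64 to -55 for Irgm2, counted from the base before the start as -1. The GAS-type pattern reads the same on both strands, so only the ISRE-type matches have an orientation. These matches stand in sequence that the genes share. Their windows have identical runs of 55 bases (-181 to -127 in Igtp), 38 bases (-80 to -43) and 29 bases (-41 to -13), and the last 2 cover both matches except for 1 base of the GAS-type one. Outside this pair, the longest run shared by windows of different members was 13 bases, between Gbp3 and Gbp7. In Gbp7, GAS-type matches at -106 to -98 and -87 to -79 precede an ISRE-type match at -53 to -44 that reads along the opposite strand.

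For the other 4 promoters, 30 bases around the ISRE-type match are shown, since some windows overlap annotated exons. The Irgm1 window lies wholly (250 bases) in an annotated exon of an Irgm1 transcript that starts farther upstream than the RefSeq start used here. The last 61 bases of the Gbp2 window, its ISRE-type match included, also lie in an annotated exon, as do 18 bases of the first Gbp3 window, which do not reach its matches. The stretches shown lie at chr3:142620594-142620623 (Gbp2), chr3:142559992-142560021 (Gbp3), chr3:142594700-142594729 (Gbp2b, the Gbp5 row) and chr11:48871428-48871457 (Irgm1, minus strand).
Gbp2: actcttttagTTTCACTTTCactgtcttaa
Gbp3: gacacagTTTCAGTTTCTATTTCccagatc
Gbp2b: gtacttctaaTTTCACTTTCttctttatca
Irgm1: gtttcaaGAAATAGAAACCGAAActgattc

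Gbp3 and Irgm1 each held a pair of overlapping matches, at -45 to -30 and at -30 to -15. The single match lay at -59 to -50 in Gbp2 and at -137 to -128 in Gbp2b, the farthest from the start.

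**Figure D1:**
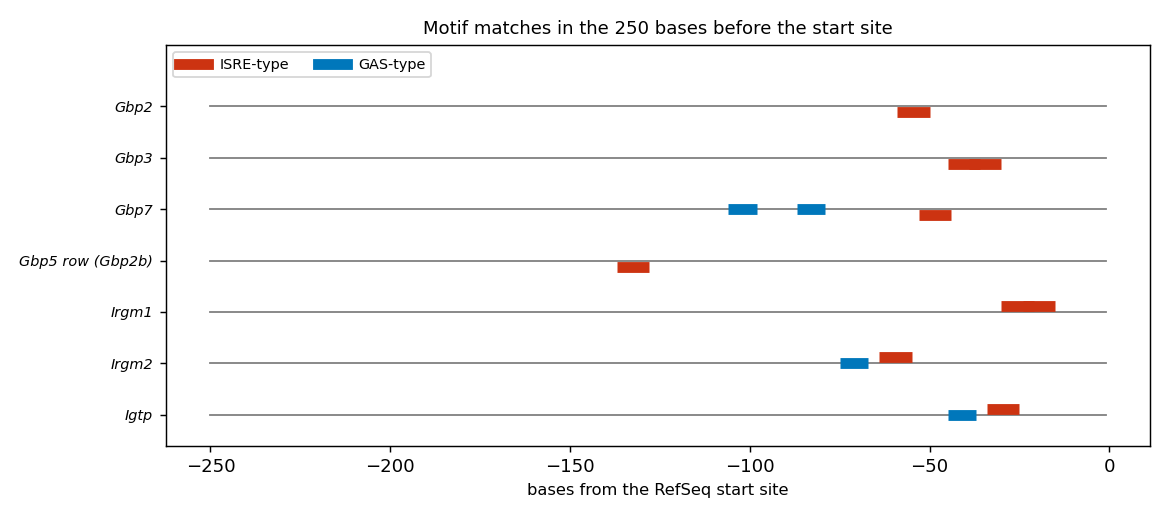
Positions of ISRE-type (red) and GAS-type (blue) pattern matches in the 250 bases before the RefSeq start site of the 7 members with a promoter window (for Gbp3, the first of 2). The horizontal axis is the distance in bases from the start site, and red bars above or below the line are matches on the gene's strand or the opposite strand. All 7 genes have an ISRE-type match and 6 of them have it within 64 bases of the start.

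The comparison of LRP1 KO with WT asked how transcript levels of these GTPases differ between mice with and without Cre-driven depletion of Lrp1. Of the 9 tested members, 8 were higher in LRP1 KO and none was lower (limma, adjusted p under 0.05 over all tested genes), with a median log2 fold change of 0.73 over the 9. Over all tested genes, 13.6% were called in either direction and 6.27% were called higher, with a median log2 fold change of -0.01. Among the 5 tested GBP members, with a group median of 0.55, Gbp2, Gbp3, Gbp7 and Gbp9 were called higher. Among the 4 tested IRG members, with a group median of 0.85, Igtp, Irgm1, Irgm2 and Iigp1 were. Related GTPases outside the list, of which 2 of 8 tested were called, are described below. Gbp7 was at 1 or more in 3 and Gbp9 in 2 of the 4 WT libraries, so both passed the filter only with the help of the LRP1 KO libraries. Among the 7 members that were at 1 or more in all WT libraries, 6 were called higher. Gbp3 and Iigp1 also passed the 2-fold limit used in the study's methods, which 1.12% of all tested genes did in the upward direction. The 4 LRP1 KO values lay above all 4 WT values in 9 of the 10 members (8 of the 9 tested), as they did in 8.84% of tested genes. The number of calls over all genes ran from 512 to 3021 when 1 library was left out, while that for the members ran from 7 to 8.

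**Figure D2:**
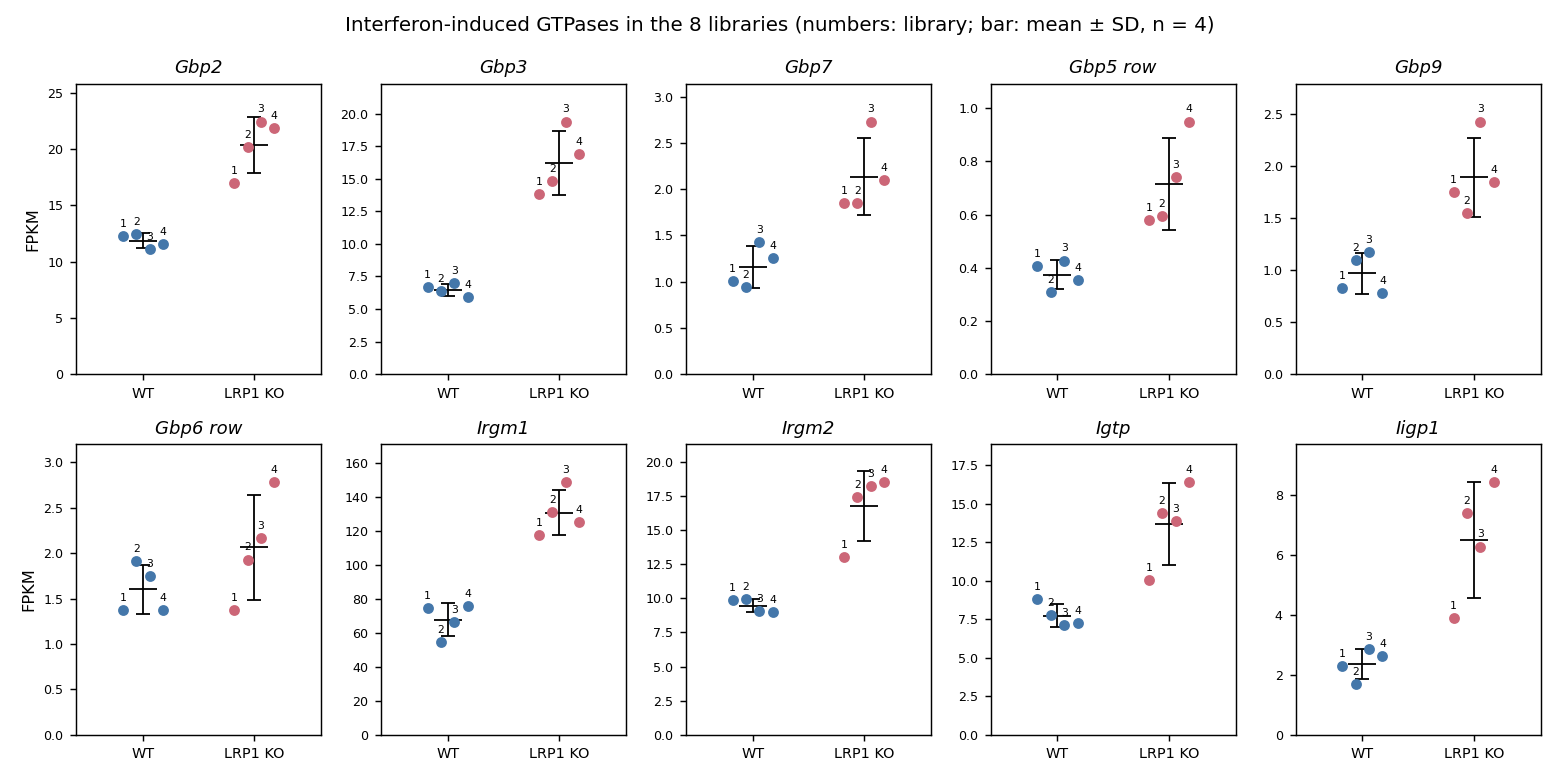
FPKM of the 10 interferon-induced GTPases in each of the 4 WT (blue) and 4 LRP1 KO (red) libraries, on axes that start at 0 and differ between panels. Numbers are library numbers and bars are the mean ± SD (n = 4). The red points lie above all blue points in every panel except that of the Gbp6 row.

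Of the IRGs, Irgm1 was by far the most abundant member, and it differed clearly between groups. Irgm1 was 74.6, 54.6, 66.3 and 76.2 FPKM in the WT libraries, listed here and below from 1 to 4, and 118, 131, 149 and 126 in the LRP1 KO ones. The lowest LRP1 KO value lay well above the highest WT value. Irgm1 encodes a regulator that sits on the Golgi, mitochondria and lysosomes and is needed for resistance to mycobacteria in mice. Its mean rose from 67.9 ± 9.90 to 131 ± 13.1 FPKM, a ratio of 1.93 and a log2 fold change of 0.94 ± 0.11 (SE), with a limma adjusted p of 0.00177 and an exact two-sided permutation p of 0.0286, the smallest that 4 against 4 libraries allow.

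Irgm2 and Igtp, the other regulators, rose by a similar ratio. Irgm2 was 9.87, 9.91, 9.10 and 8.98 FPKM in WT and 13.0, 17.4, 18.2 and 18.5 in LRP1 KO, with the first LRP1 KO library nearest to WT. Its log2 fold change was 0.75 ± 0.11 (limma adjusted p 0.00407), a ratio of means of 1.77. Igtp was 8.83, 7.77, 7.11 and 7.27 FPKM in WT and 10.1, 14.4, 13.9 and 16.4 in LRP1 KO. Again the first LRP1 KO library was the lowest of its group, and the groups did not overlap. The log2 fold change of Igtp was 0.73 ± 0.13 (limma adjusted p 0.0109), also with a ratio of 1.77. Igtp and Irgm2 share transcript sequence and overlap on the genome, so their values are not fully separate measurements.

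Iigp1, the effector IRG of the set, had the highest ratio of all members but also the widest spread relative to its level. It was 2.29, 1.71, 2.85 and 2.62 FPKM in WT and 3.89, 7.40, 6.27 and 8.41 in LRP1 KO. All 4 LRP1 KO values were higher than any WT value, with library 1 lying closest to the WT range. The mean went from 2.37 ± 0.494 to 6.49 ± 1.94 FPKM, a ratio of 2.74, and the log2 fold change was 1.12 ± 0.20 (95% interval 0.68 to 1.57, limma adjusted p 0.00989).

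Among the GBPs, Gbp3 changed most. Gbp3 was 6.68, 6.37, 6.98 and 5.90 FPKM in WT and 13.8, 14.9, 19.4 and 16.9 in LRP1 KO. The lowest LRP1 KO library was thus nearly at double the highest WT library. Gbp3 encodes a GBP of the chromosome 3 cluster that is recruited to parasite vacuoles. The ratio of means was 2.50 and the log2 fold change 1.19 ± 0.10 (95% interval 0.96 to 1.42), with a limma adjusted p of 0.000467, the smallest among the members.

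Gbp2, which coats Toxoplasma vacuoles and cytosolic bacteria, was the most abundant GBP. It was 12.3, 12.5, 11.1 and 11.6 FPKM in WT and 16.9, 20.2, 22.4 and 21.9 in LRP1 KO. The WT libraries lay close together (11.9 ± 0.643 FPKM), and every LRP1 KO library was above them (20.4 ± 2.48 FPKM). Its ratio of 1.72 was lower than that of Gbp3, and its log2 fold change was 0.73 ± 0.09 (95% interval 0.53 to 0.93, limma adjusted p 0.00217).

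Gbp7 and Gbp9 were near the lower limit of the test. Gbp7, which helps to bring NADPH oxidase and autophagy proteins to bacterial vacuoles, was 1.01, 0.946, 1.43 and 1.25 FPKM in WT and 1.85, 1.85, 2.73 and 2.10 in LRP1 KO. The groups did not overlap, and the ratio of means was 1.84. The log2 fold change was 0.53 ± 0.12 (limma adjusted p 0.0212), and the call was lost without WT library 1 (limma adjusted p 0.0533), without WT library 2 (0.0663) or without LRP1 KO library 3 (0.0526). Gbp9 was 0.824, 1.10, 1.17 and 0.782 FPKM in WT and 1.75, 1.54, 2.43 and 1.84 in LRP1 KO, where library 2 and not library 1 was lowest. Its ratio was 1.95 and its log2 fold change 0.55 ± 0.12 (limma adjusted p 0.0190). At such levels the added 1 FPKM makes the log2 fold change smaller than the log2 of the ratio.

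The row named Gbp5 (identifier of Gbp2b) had the lowest values of the members. It was 0.407, 0.307, 0.427 and 0.353 FPKM in WT and 0.579, 0.595, 0.741 and 0.950 in LRP1 KO. The groups did not overlap (ratio of means 1.92, exact two-sided permutation p = 0.0286, n = 4 each), but the gene was not part of the test across genes. The row named Gbp6 was the exception among the 10. It was 1.37, 1.92, 1.75 and 1.37 FPKM in WT and 1.38, 1.93, 2.16 and 2.78 in LRP1 KO, so that LRP1 KO library 1 stood at the bottom of the WT range and library 4 above all others. Its log2 fold change of 0.22 ± 0.14 (95% interval -0.10 to 0.54) did not pass the test (limma adjusted p 0.299), and the interval still includes values close to those of Gbp7 and Gbp9. A further row named Gbp1, whose identifier is not in the annotation used, varied from 0 to 2.60 FPKM in WT and from 0 to 5.55 FPKM in LRP1 KO and was left out of the lists.

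Levels are set side by side between genes on the assumption that the values are FPKM, scaled by transcript length, which was inferred and not stated with the table. The place of the Gbp6 row is the least certain, since all of its stretches are shared with other genes. In WT the order of mean FPKM was Irgm1, Gbp2, Irgm2, Igtp, Gbp3, Iigp1, the Gbp6 row, Gbp7, Gbp9 and the Gbp5 row. The WT ranges of neighbours overlapped for Iigp1 and the Gbp6 row, for the Gbp6 row and Gbp7 and for Gbp7 and Gbp9, and were separate for the rest of the neighbours. In LRP1 KO, Gbp3 moved ahead of Igtp and Gbp7 ahead of the Gbp6 row, but the ranges of Gbp2 and Irgm2, Irgm2 and Gbp3, Gbp3 and Igtp, Gbp7 and the Gbp6 row, and the Gbp6 row and Gbp9 overlapped. The 10 members summed to between 97.1 and 118 FPKM in WT and between 181 and 237 FPKM in LRP1 KO. Irgm1 alone gave between 56.2% and 65.5% of these sums. For orientation, the median tested gene had a WT mean of 11.7 FPKM, so Irgm1 was well above, Gbp2 close to and the other members below it.

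The members moved together across the LRP1 KO libraries in part. Library 1 alone was the lowest LRP1 KO library for 8 of the 10 genes, library 2 was lowest for Gbp9, and both were level for Gbp7, while the highest was library 3 for 5 of them and library 4 for the other 5. The mean log2(FPKM + 1) over the 9 tested members was 2.72, 2.67, 2.76 and 2.69 in WT and 3.19, 3.45, 3.61 and 3.60 in LRP1 KO, a difference of 0.75. The WT libraries were thus nearly level, and the LRP1 KO libraries spread more widely. After the group means were removed, the 36 pairs of tested members had correlations over the 8 libraries from -0.20 to 0.96 with a median of 0.48. These correlations are a description over 8 libraries that share the same normalization.

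Other cell types could contribute to these levels, so their markers were examined by library. Of 12 macrophage markers, 10 were tested and 8 were higher in LRP1 KO, and the 12 summed to between 55.7 and 96.2 FPKM in WT and between 224 and 544 FPKM in LRP1 KO. Lyz2, the lysozyme of macrophages and other myeloid cells, went from 39.4 ± 12.7 to 250 ± 89.8 FPKM, and Adgre1, the F4/80 antigen, from 0.316 ± 0.152 to 3.12 ± 1.02 FPKM. Adgre1 and Mrc1 were under 1 FPKM in all WT libraries, and C1qc was in WT library 1. All of them are among the 8 and passed the filter only with the help of the LRP1 KO libraries. The macrophage sums thus separated the groups as the GTPases did, and the order within LRP1 KO was different. Library 3, where 5 GTPases were highest, had the lowest macrophage sum of its group (224 FPKM), and library 2 had the highest (544 FPKM). Library 4, where the other 5 GTPases were highest, had 484 FPKM, next to that of library 2. Macrophages express these GTPases too, and the part of the macrophage transcripts in the result was not tested.

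None of the 12 endothelial markers passed the test, although their sums reached 453, 246 and 309 FPKM in LRP1 KO libraries 1, 2 and 3. Library 4 had 96.4 FPKM, within the WT range, and held the highest values of 5 GTPases. Library 1 had the highest endothelial sum and, alone, the lowest values of 8 of the 10 GTPases. Of 8 mural cell markers, 6 were tested and 2 were higher (Acta2 and Tagln), and the 8 summed to between 627 and 793 FPKM in WT and between 976 and 1550 FPKM in LRP1 KO. Nearly all of these sums came from Acta2 and Tagln, which encode contractile proteins. Pdgfrb was 71.6 FPKM in WT and 58.0 in LRP1 KO on average (limma adjusted p 0.221). Rgs5 (0.720 and 0.669) and Kcnj8 (0.197 and 0.221) were too low to be tested. Myh11 (2.03 and 4.87, limma adjusted p 0.0535), Notch3 (2.30 and 3.40, 0.0936) and Cspg4 (0.916 and 1.34, 0.132) were higher on average in LRP1 KO but not called. The groups overlapped for each of these mural markers. Of 8 fibroblast markers 2 were lower in LRP1 KO (Pdgfra and Dpt) and none was higher. The part of endothelial, mural and fibroblast shares in the GTPase levels was not tested.

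Markers of T and NK cells were nearly absent from these libraries. None of 12 such markers reached the level needed for the test, 7 of them (Cd3e, Cd3g, Cd8a, Gzma, Gzmb, Ncr1 and Nkg7) were listed at 0 in all 8 libraries, and the 12 summed to between 0.264 and 0.800 FPKM in WT and between 0.246 and 0.733 FPKM in LRP1 KO. The 5 B cell markers summed to at most 0.105 FPKM, with Pax5 listed at 0 throughout. Of 6 neutrophil markers, S100a8 was tested and was higher in LRP1 KO, while S100a9 and Ly6g were listed at 0. S100a8 was at 1 FPKM or more in no WT library but library 1, so it passed the filter only with the help of LRP1 KO libraries. The sums of the 6 were 0.479 to 1.62 FPKM in WT and 1.22 to 3.88 FPKM in LRP1 KO. Of 6 dendritic cell markers, only Zbtb46 was tested and was not called, and Siglech and Cd209a were listed at 0. The sums of the 6, nearly all of it Zbtb46, were 2.51 to 3.28 FPKM in WT and 2.30 to 2.86 FPKM in LRP1 KO. Hepatocyte and lung epithelial markers, 5 of each, summed to at most 1.60 and 1.33 FPKM, and none was tested. The 5 cardiomyocyte markers summed to between 83.5 and 153 FPKM, nearly all of it Tnnt2, which was not called.

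**Figure D3:**
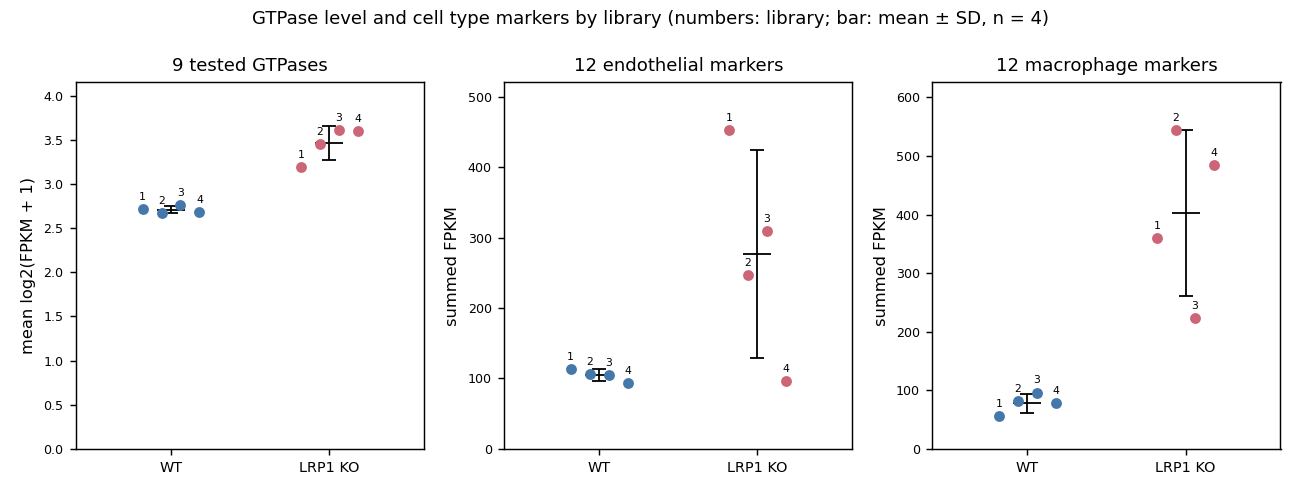
Mean log2(FPKM + 1) of the 9 tested GTPases (left), summed FPKM of 12 endothelial markers (middle) and summed FPKM of 12 macrophage markers (right) in each library. Numbers are library numbers and bars are the mean ± SD (n = 4). LRP1 KO libraries lie above WT for the GTPases and the macrophage markers but in a different order, and LRP1 KO library 4 lies at the WT level of the endothelial markers.

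Other genes of these and related GTPase families were examined from a list of 21 names, of which 18 were in the table and 8 were tested. Of these, 2 were higher in LRP1 KO and none was lower. They were Gvin1 and Gm4070, very large inducible GTPase genes on chromosome 7. Gvin1 was 2.07, 2.16, 3.76 and 3.62 FPKM in WT and 10.7, 10.7, 14.9 and 7.58 in LRP1 KO, with a log2 fold change of 1.61 ± 0.21 (limma adjusted p 0.00275). Gm4070 had a log2 fold change of 1.64 ± 0.23 (limma adjusted p 0.00386). These are near-identical copies (98.3% of their 50-base stretches are shared), so they may count the same reads.

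Several close relatives of the IRG members did not pass the test. Ifi47 (Irgd) was 22.8 ± 3.42 FPKM in WT and 23.9 ± 2.59 in LRP1 KO, a log2 fold change of 0.08 with a 95% interval of -0.17 to 0.33 (limma adjusted p 0.665), an interval that ends below the point estimates of all 4 IRG members. Tgtp1 and Tgtp2, the copies of the effector Irgb6, share about 90% of their sequence stretches, and their log2 fold changes were 0.17 and 0.55 (limma adjusted p 0.611 and 0.162). Tgtp2 was 7.15, 9.66, 5.85 and 5.79 FPKM in WT and 6.75, 10.6, 9.72 and 18.4 in LRP1 KO. LRP1 KO library 1 thus lay inside the WT range. The IRG genes 9930111J21Rik1 and 9930111J21Rik2 had log2 fold changes of 1.13 and 1.02 but wide spread (limma adjusted p 0.112 and 0.0737), and both were called higher when LRP1 KO library 4 was left out (limma adjusted p 0.0454 and 0.0194), which brought the count from 2 to 4. The last tested gene, Irgq, had a log2 fold change of -0.13 (limma adjusted p 0.196). The difference between the called and the uncalled IRGs was not tested. Atlastins are membrane-fusing GTPases related to GBPs in structure, and none of the 3 was called.

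**Figure D4:**
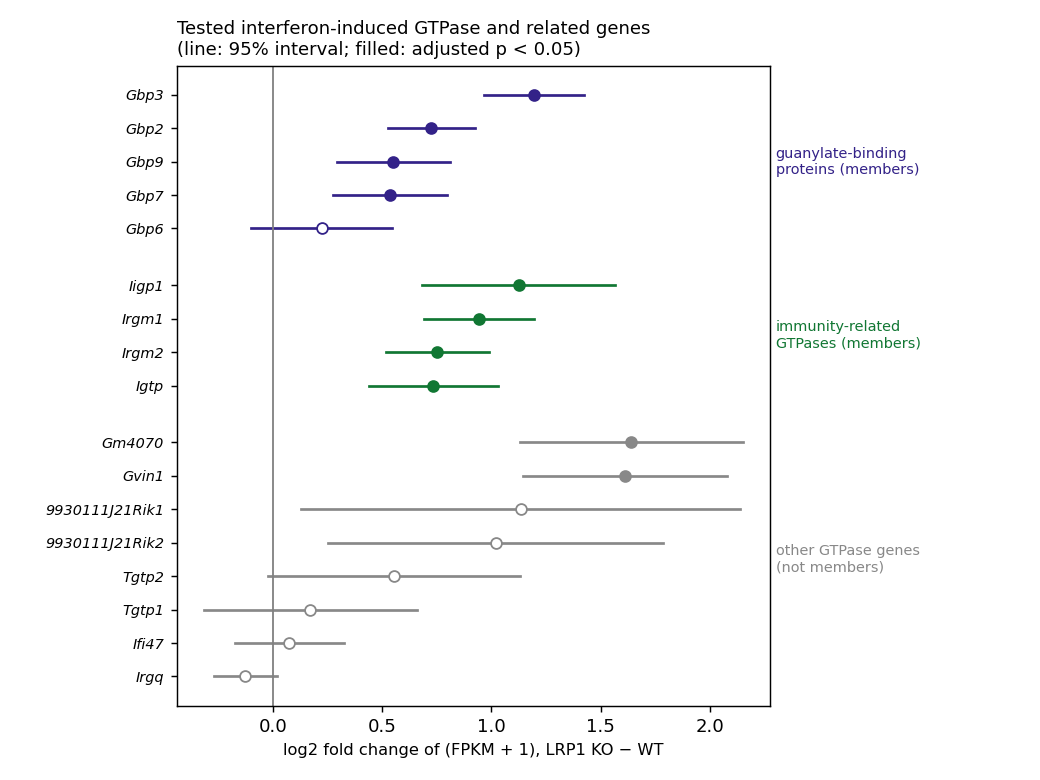
Log2 fold change of FPKM + 1 (LRP1 KO minus WT) for the 9 tested members and 8 tested related GTPase genes, with 95% intervals from limma. Filled points have an adjusted p under 0.05. All 9 members lie to the right of 0, with the interval of the Gbp6 row crossing it, while Ifi47 and Tgtp1 lie close to 0.

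The interferon pathway was followed from ligand to inhibitor in a list of 36 names, of which 34 were in the table and 21 were tested. In all, 6 were higher in LRP1 KO and none was lower, and the median log2 fold change was -0.00. That none was lower did not hold under 4 of the 14 alternatives. Without LRP1 KO library 4, 6 were called higher and 3 (Ifnar2, Stat3 and Irf1) lower, and with array weights 5 were higher and 3 (Ifnar1, Ifnar2 and Stat3) lower. Without WT library 1, 5 were higher and 1 (Irf2) lower, and without the filter on low values 5 were higher and 1 (Ifnlr1, listed as Il28ra) lower. None of 8 ligand genes could be tested. Ifng, Ifna2, Ifna4, Ifnl2, Ifnl3 and Ifnk were listed at 0 in all libraries, and Ifnb1 (0.103 FPKM) and Ifne (0.0360 FPKM) were above 0 only in LRP1 KO library 3. The cells in which an interferon is made need not be in the sample, and a listed 0 does not show the absence of a transcript at an unknown depth.

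None of 5 tested receptor genes was called. The chains of the interferon gamma receptor, Ifngr1 and Ifngr2, had log2 fold changes of -0.08 (95% interval -0.27 to 0.11) and -0.00 (-0.17 to 0.17). Those of the type I receptor, Ifnar1 and Ifnar2, were at -0.19 (-0.37 to -0.01) and -0.36 (-0.64 to -0.08), with limma adjusted p of 0.127 and 0.0817. Ifnar2 was called lower without LRP1 KO library 4 (limma adjusted p 0.0131), and with array weights both Ifnar1 (limma adjusted p 0.0337) and Ifnar2 (0.0304) were. Il10rb, shared by the interferon lambda receptor, was at 0.03 (limma adjusted p 0.714), and its partner chain Ifnlr1, too low to be tested, was 1.11 ± 0.107 FPKM in WT and 0.618 ± 0.155 in LRP1 KO.

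Stat2 and Irf9, which join in the ISRE-binding complex, were higher. Stat2 went from 17.8 ± 1.33 to 26.7 ± 3.87 FPKM (log2 fold change 0.55, limma adjusted p 0.0148, a call that was just lost without LRP1 KO library 2). Irf9, the DNA-binding part of this complex, went from 18.0 ± 1.07 to 26.6 ± 2.57 FPKM (0.54, limma adjusted p 0.00493). Irf7, the factor that amplifies type I interferon responses, showed the larger change among transcription factors. It was 14.9, 11.6, 10.9 and 11.6 FPKM in WT and 29.5, 38.6, 43.2 and 50.9 in LRP1 KO (log2 fold change 1.63 ± 0.16, limma adjusted p 0.000628). Irf1, which drives GBP transcription after interferon gamma, had a log2 fold change of -0.31 (95% interval -0.61 to -0.01, limma adjusted p 0.133).

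Usp18, the protease that removes ISG15 and blocks signalling at the type I receptor, had the largest change of the tested pathway genes. It was 6.24, 4.77, 4.85 and 4.56 FPKM in WT and 19.7, 27.7, 32.1 and 29.9 in LRP1 KO, a log2 fold change of 2.20 ± 0.15 (limma adjusted p 0.000357). As for most GTPases, LRP1 KO library 1 was the lowest of its group. Ptpn6, the phosphatase SHP-1 of blood cells, was 0.785 ± 0.341 FPKM in WT and 1.79 ± 0.633 in LRP1 KO with overlapping groups (log2 fold change 0.63, limma adjusted p 0.0493), and this call was lost in 8 of 14 alternative settings, the omission of WT library 1, 2 or 3 or of LRP1 KO library 1 or 2 among them. Ptpn6 was at 1 FPKM or more in no WT library but library 4, so it passed the filter only with the help of LRP1 KO libraries. Among the rest of the tested pathway genes, Jak1, Jak2, Tyk2, Stat3, Irf2, Irf3, Socs3, Ptpn2 and Pias1 were not called.

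Transcripts of proteins that work beside the GTPases showed no common direction. IRGs and GBPs need the conjugation of ATG8 proteins to reach vacuoles, and GBPs act upstream of inflammasomes. Of 18 named partner genes, 17 were in the table and 15 were tested, and 2 were higher and 3 lower. Atg12 (0.23, limma adjusted p 0.0488) and Casp4, the sensor of bacterial lipopolysaccharide (0.29, limma adjusted p 0.0475), were slightly higher. The ATG8 family genes Gabarapl1 (-0.55, limma adjusted p 0.0233) and Map1lc3a (-0.33, limma adjusted p 0.0240) were lower. Il18, an inflammasome substrate, was lower, with 34.2, 28.9, 26.9 and 28.4 FPKM in WT and 18.4, 18.6, 17.8 and 20.1 in LRP1 KO (log2 fold change -0.63 ± 0.08, limma adjusted p 0.00238). Of these 5 calls only that of Il18 held in all 14 alternative settings. When 1 library was left out, the number of partner calls ranged from 1 (without WT library 1 or 2 or LRP1 KO library 1 or 2) through 2 (without LRP1 KO library 3) and 3 (without WT library 3 or 4) to 4 (without LRP1 KO library 4).

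**Figure D5:**
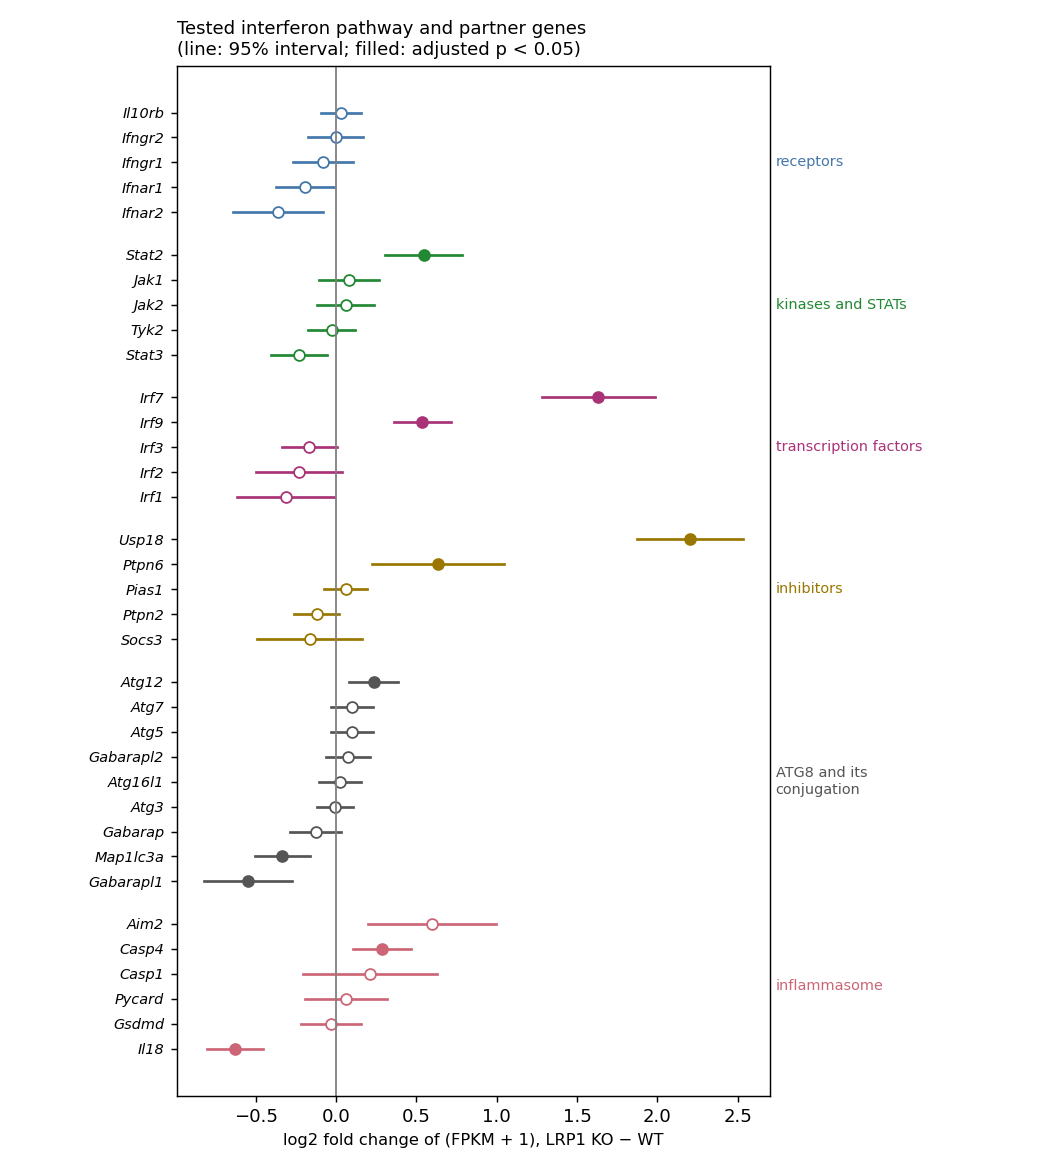
Log2 fold change of FPKM + 1 (LRP1 KO minus WT) with 95% intervals from limma for tested interferon pathway genes and 15 tested partner genes, grouped by role. Filled points have an adjusted p under 0.05. Stat2, Irf7, Irf9, Usp18 and Ptpn6 lie to the right of 0 with intervals that do not reach it, while none of the receptors is filled.

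The genes whose pattern was most like that of the GTPases were ranked by Pearson correlation of log2(FPKM + 1) with the mean of the 9 tested members over the 8 libraries. Of 11380 other tested genes, 131 had r of at least 0.9, and 16 had it after the group means were removed. The closest 8 were Ifih1 (r = 0.997), Bglap2 (0.996), Trim30a (0.995), Parp9 (0.994), Parp12 (0.991), Ifi44 (0.990), Zbp1 (0.986) and Irf9 (0.986). With group means removed, their r was 0.966, 0.972, 0.961, 0.952, 0.927, 0.906, 0.838 and 0.873 in the same order. Most of the 8 are known interferon-stimulated genes, such as Ifih1, the RNA sensor MDA5, and Zbp1, a sensor of Z-form nucleic acids. Bglap2, an osteocalcin gene, was between 0 and 0.292 FPKM in WT and 2.06, 3.41, 4.52 and 4.01 in LRP1 KO. Such a ranking favours genes with a large group difference and shows no relation beyond likeness across these libraries.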

How the data were processed

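RNA was sequenced from 8 libraries, 4 WT and 4 LRP1 KO, grouped by their titles. The deposited values are not whole numbers and share 1 distribution across libraries, so they were taken as quantile-normalized FPKM made by the authors. This unit is inferred from the values. The submitters' processing notes name TopHat2, Cufflinks and mm10, while the study's methods name trimGalore, STAR, featureCounts and edgeR, so which steps gave these values is unsure. Quantile normalization removes depth, so no counting error could be given and a count test was not used.

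Genes with at least 1 FPKM in at least 4 libraries were kept. log2(FPKM + 1) was fitted with group as the only term in limma 3.58.1 (R 4.3.3, trended variance), and p-values were adjusted by the Benjamini-Hochberg method over 11389 genes. Fold changes on this scale understate those of genes with low values. For each member, a two-sided exact permutation test used the 70 ways to draw 4 of 8 libraries. The fit was tested on simulated data. A call needed an adjusted p under 0.05, and the 2-fold limit a log2 fold change of at least 1.

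The members and all gene lists were chosen with earlier results of these data known. Named genes were the 10 members, the called genes of each list except as said below, all ligands and receptors, Lrp1, up to 3 examples per marker list and the 8 genes most like the members. Related GTPases that were tested but not called and the uncalled pathway genes were named after their values were seen. So were Mrc1, C1qc, the mural cell markers other than Acta2 and Tagln, the markers listed at 0 and the row named Gbp1. Alternatives were a pseudocount of 0.1, no filter, median-ratio scaling, a constant variance prior, array weights, a replicate block and the omission of each library. Some items of the lists are counted but not reported here by name.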

Additional observations from a re-analysis of the deposited data

How the results depend on the processing

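The 8 member calls held with a pseudocount of 0.1, median-ratio scaling, a constant variance prior, array weights and the replicate block, rose to 9 without a filter, where the Gbp5 row was tested too, and ran from 7 to 8 when 1 library was left out. Of 112 estimates of the 8 called members under 14 alternatives, 109 were still called and 3 (all Gbp7) were not. The Gbp6 row was called in none of its 14, and 0 of the 126 estimates in all changed direction. The count of members with a 2-fold change was 2, it was 1 with array weights, where Iigp1 was at 0.98, and it ran from 2 to 3 over the omissions, the third being Irgm1 without WT library 4. Over all genes, 1547 calls became 3003 with array weights and 1013 with the replicate block, and ran from 512 to 3021 over the omissions. Related GTPases numbered 2 calls, 4 without a filter (Gbp4 and Gm4951 were then tested), 3 with array weights, and 2 to 4 over the omissions. Partner genes numbered 5 calls, 2 without a filter, 3 with a constant prior, 6 with array weights, 2 with the replicate block and 1 to 4 over the omissions. Interferon pathway calls ran from 4 to 9 over the omissions and were 8 with array weights (5 higher, 3 lower) and 5 with the replicate block. The Ifngr2 estimate of -0.00 became 0.014 with median-ratio scaling and ran from -0.076 to 0.034 over the omissions, and that of Tgtp1 ran from -0.021 to 0.34. The cause of these shifts was not tested.

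The labels give replicate numbers but do not say whether same-numbered libraries are paired. Deviations of same-numbered libraries correlated at 0.16, 0.14, 0.34 and -0.31. Of the 4 WT libraries, 2 correlated best with the LRP1 KO library of their own number. With 4 libraries per group, these values cannot settle whether the numbers mark pairs. The replicate block changed no member call. Depth is unknown, so it cannot be said how far low counts limit the values of Gbp7, Gbp9 and the Gbp5 row.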
